A study of Drosophila melanogaster with 23 samples.

Results

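The accessible chromatin around 3 head gap genes of Drosophila melanogaster was described: orthodenticle (oc), buttonhead (btd) with its neighbour Sp1, and empty spiracles (ems) with its neighbour E5. ATAC-seq peaks of 22 libraries were merged into 25311 regions of genome build dm3 wherever they overlapped by at least 1 bp. Of these, 93 had their centre in one of 3 windows. The oc window (X:8510000-8560000) held 21, the btd and Sp1 window (X:9560000-9680000) held 45, and the ems and E5 window (3R:9700000-9800000) held 27. The members were chosen by the positions of these windows and by the peaks of all 22 lists. The windows were set with differences of the anterior lists already known. The presence and length of peaks in anterior nuclei are thus given below as a description and not as independent evidence.

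All embryos were at stage 5, the cellular blastoderm, in a wild-type background, collected over 20 min, aged for 150 min and frozen by 190 min. Each tagged strain carried 1 transgene, in which an enhancer of a patterning gene drove FLAG-tagged UNC84, a protein of the nuclear envelope, in a band along the axis. Nuclei of that band were isolated by pull-down with an anti-FLAG antibody. The anterior nuclei were those of D1 (construct hb_anterior_Hs34_UNC84-3xFLAG), D3 (eve_stripe1_DSCP) and D2 (eve_stripe2_DSCP). The central nuclei were those of D4 (D_central_Hs43) and D5 (Kr_central_Hs43). The posterior nuclei were those of D6 (eve_stripe5_DSCP) and D7 (gt_posterior_Hs43_UNC84_3xFLAG). Each of the 7 domains had 2 lists, from separate transgenic strains except for D3, whose lists carry the same strain label, so 14 tagged lists were compared. Whole embryos of the D1, D4, D5 and D7 strains, 2 lists each and 8 in all, had no pull-down and so hold the tagged nuclei together with all others. A tagged band is as narrow and as pure as the enhancer and the pull-down make it, and this was not checked here, since peak lists hold no transcript levels. Accessibility in fewer nuclei and weaker accessibility in each nucleus cannot be told apart in such pools.

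The lists held 16830 to 22169 peaks on the main chromosome arms, and read depth was unknown. Anterior lists held peaks in 14347 to 19174 of the merged regions, central lists in 16832 to 18838, posterior lists in 13692 to 16241 and whole-embryo lists in 16820 to 18294. Posterior lists were thus the shortest by their mean (14985.8 regions, against 16246 in anterior and 17863 in central lists), which bears on every count of missing peaks below.

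Head gap genes divide the anterior of the fly embryo into the segments of the head. Their stripes of expression arise at the blastoderm under the maternal morphogen Bicoid together with the terminal signalling system, and their loss removes adjoining head segments. oc and ems encode homeodomain transcription factors, oc being the founder of the Otx family, and E5 is a homeodomain gene related to ems. btd encodes a zinc-finger transcription factor of the Sp family, and Sp1 is its paralogue. In the RefSeq annotation of the later Release 6 assembly, used only for the order of genes, oc lies between Caf1-180 and Rubicon. In that order btd and Sp1 have lncRNA:CR43498 between them, and E5 and ems are direct neighbours with Art9 beyond ems. No annotation of genes on dm3 was used here, so regions are given by position and are not assigned to promoters, exons or introns, or to 1 of the 2 genes of a window.

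The share of regions found in every list differed between the windows. Of the 93 regions, 46 (49.5%) were found in all 22 lists, against 42.8% of all regions of the series, and 7 (7.53%) were found in a single list, against 10.2%. The median width was 622 bp for members and 480 bp for all regions. In the oc window 7 of 21 regions (33.3%) were found in every list, below the share of the series, and 4 (19.0%) in a single list, above it. The median width of all oc regions was 460 bp. In the btd and Sp1 window 25 of 45 (55.6%) were found in every list, and in the ems and E5 window 14 of 27 (51.9%). The regions found in every list were wide at oc, with a median of 1773 bp, against 897 bp at btd and Sp1 and 829.5 bp at ems and E5.

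More regions of each window carried a peak in anterior nuclei than in the other tagged nuclei. At oc the lists of D1 held 19 and 16 regions, those of D3 13 and 11 and those of D2 10 and 8, while D4 held 11 and 7, D5 8 and 11, D6 10 and 9, and D7 8 and 7. The mean at oc was 12.8 ± 4.07 regions in anterior lists (SD, n = 6), 9.25 ± 2.06 in central lists (n = 4), 8.50 ± 1.29 in posterior lists (n = 4) and 12.4 ± 1.51 in whole embryos (n = 8). The excess at oc lay in D1 and D3 replicate 1, since D3 replicate 2 and both D2 lists were within the range of the central and posterior lists.

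At btd and Sp1 the lists of D1 held 41 and 38 regions, those of D3 37 and 40, those of D2 38 and 33, those of D4 38 and 36, those of D5 35 and 35, those of D6 31 and 32, and those of D7 35 and 31. The mean was 37.8 ± 2.79 in anterior, 36.0 ± 1.41 in central, 32.2 ± 1.89 in posterior and 35.8 ± 1.58 in whole-embryo lists, so anterior and central lists overlapped there. At ems and E5 the lists of D1 held 26 and 24 regions, those of D3 22 and 22, those of D2 22 and 20, those of D4 22 and 19, those of D5 19 and 19, those of D6 17 and 16, and those of D7 17 and 18. The mean was 22.7 ± 2.07 in anterior, 19.8 ± 1.5 in central, 17.0 ± 0.816 in posterior and 21 ± 0.756 in whole-embryo lists. The 6 anterior lists of that window were all above the 4 posterior lists, and overlapped with D4 replicate 1.

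The library names follow 3 styles, a possible batch that the labels do not explain. At oc, the means within the styles were 19 in anterior against 9 in other tagged lists (1 and 3 lists), 13 against 8.75 (3 and 4 lists) and 9.5 against 9 (2 lists and 1 list). At ems and E5 they were 26 against 19.3, 22.7 against 18.2 and 21 against 16, and at btd and Sp1 41 against 36.0, 37.7 against 33.2 and 36.5 against 32.0. The direction was the same in each style, and the part of style in these counts was not tested.

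**Figure D1:**
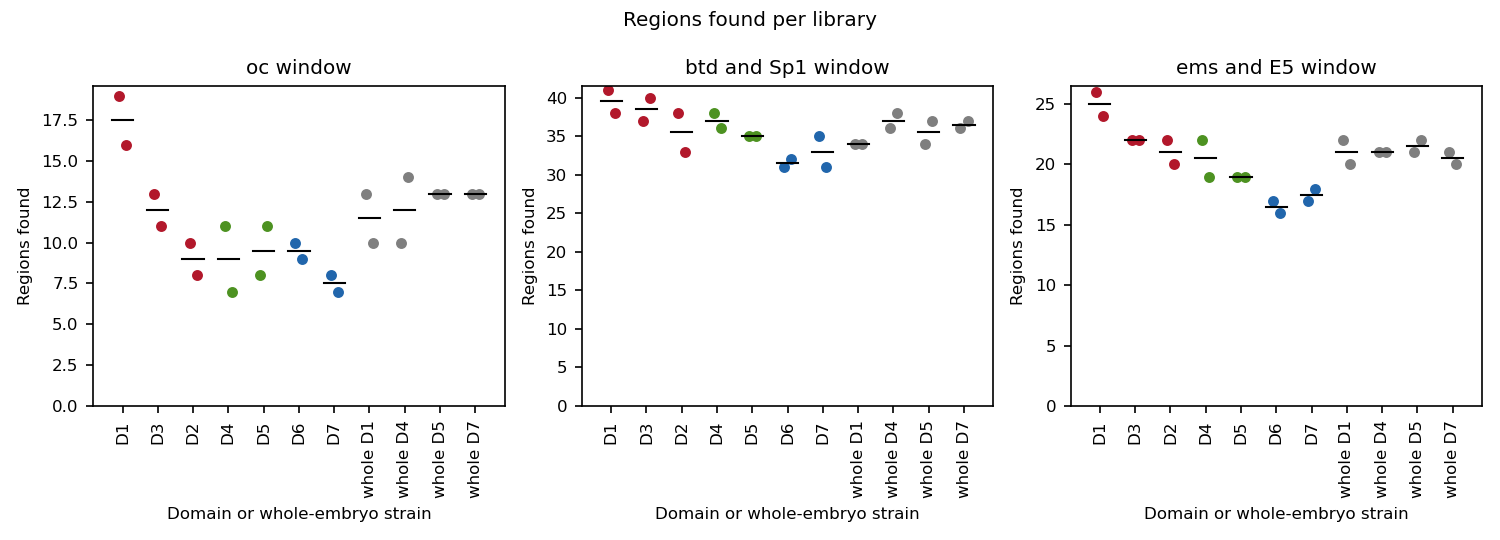
Number of member regions with a peak (y axis, count) in each list, by domain and for whole embryos (x axis), 1 panel per window; points are lists and lines the mean of 2 lists. D1 has the highest counts in all 3 panels (up to 19, 41 and 26 regions), and D6 and D7 lie low in the ems and E5 panel (16 to 18).

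Region by region, 33 of the 93 members had a peak in 2 or more tagged lists and lacked one in 2 or more, and the other 60 (most of them found in every tagged list) could not be compared by presence. Of the 33, 26 were found in a larger share of the 6 anterior lists than of the 8 other tagged lists, 6 in a smaller and 1 in an equal share, with a median difference of 33.3 percentage points. Over all 9284 regions compared in the same way, 4335 (46.7%) were found in a larger share of the anterior lists, with a median difference of -4.17 points. All 10 regions compared at oc, 10 of 15 at btd and Sp1 and 6 of 8 at ems and E5 leaned to the anterior. Fisher's exact test with Benjamini-Hochberg adjustment over the 9284 regions called 0 regions in the whole series (0.0%), with a smallest adjusted p of 0.0583, while 281 regions (3.03%), 7 of them members, had an unadjusted p below 0.05 in the anterior direction and 256 (2.76%), 0 of them members, in the other. Of the 33 members, 2 (6.06%) were found in all 6 anterior lists and in 0 of the 8 others, a pattern held by 29 regions (0.312%) of the series, and 0 members had the opposite pattern, held by 24 regions (0.259%). Full separation gives the smallest p possible with 6 and 8 lists, so the adjusted p of 0.0583 was that of these regions.

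In the oc window, both D1 lists held regions that the other anterior domains lacked. D1 replicate 1 was also the longest of all lists, with 22169 peaks against 17412 to 20466 in D3 and D2, while D1 replicate 2 held 19117. The part of list length in this was not tested. The regions X:8523673-8524077, X:8533401-8533923 and X:8539479-8539938 were found in both D1 lists and in 0 of the other 12 tagged lists, a pattern of 125 regions (1.35%) in the series. The first of these was also in 5 and the second in 4 of the 8 whole-embryo lists, and the third was in none of them. Peaks at the first were weak in D1, with an authors' fold of 2.56 and 1.72. X:8529221-8529842 was found in both D1 and both D3 lists and in no other tagged list, which 20 regions (0.215%) of the series showed. Peaks covered 607 and 503 bp of it in D1 and 209 and 254 bp in D3, and 5 of the 8 whole-embryo lists had a peak there of up to 290 bp. X:8540048-8540548 carried a peak in all 6 anterior lists (480 and 385 bp in D1, 383 and 231 bp in D3, 307 and 336 bp in D2), in D5 replicate 2 (207 bp), in D6 replicate 1 (383 bp) and in all whole embryos (378 to 478 bp). No member of any window was found in both lists of D3, D2, D4, D5, D6 or D7 alone, patterns held by 0.248%, 0.0862%, 0.711%, 0.636%, 0.0% and 0.259% of the regions compared in the series.

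**Figure D2:**
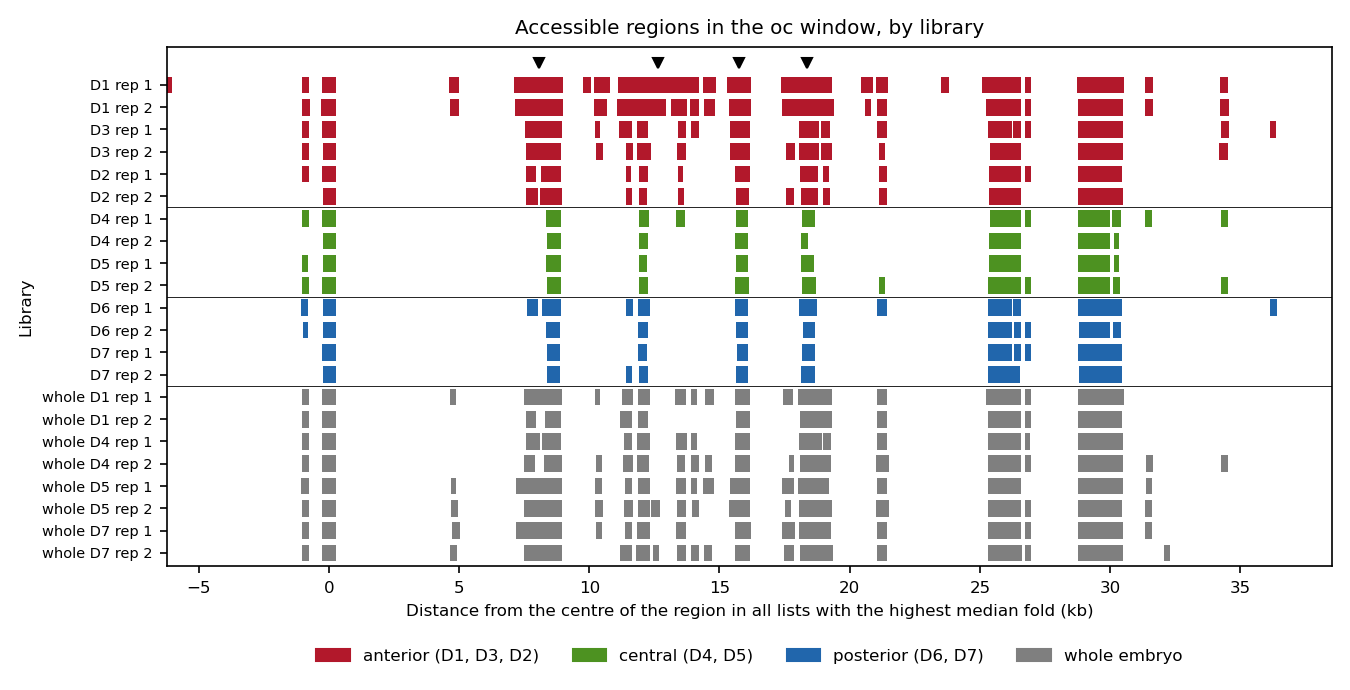
Peaks in the oc window, as bars at their distance in kb from the centre of the region found in every list with the highest median fold over the lists (x axis), 1 row per list from D1 at the top through D3, D2, D4, D5, D6 and D7 to whole embryos. Triangles mark regions that were longer in anterior nuclei (adjusted p below 0.05), and the 4 triangles lie over bars that run longest in the D1 rows (up to 3089 bp).

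The btd and Sp1 window held 1 of the 2 fully anterior members. At X:9660905-9661316 the peak covered 340 and 339 bp in D1, 329 and 408 bp in D3 and 327 and 306 bp in D2, and no peak was listed in any D4, D5, D6 or D7 library. All 8 whole-embryo lists had a peak at this region, covering between 246 and 276 bp (median 252 bp), less than in each anterior list. The next region along the chromosome, X:9661500-9661953, was found in all 22 lists and is described below with the covered lengths. X:9585102-9585610 was found in all 6 anterior lists (364 to 486 bp), 1 of 4 central and 2 of 4 posterior lists and in all whole embryos (407 to 482 bp). X:9585769-9586258, next to it, was found in all 6 anterior lists, 3 of 4 central, 0 of 4 posterior and 6 of 8 whole-embryo lists. X:9594034-9594759 was likewise in 5 anterior and 3 central lists and in none of the 4 posterior lists, and in 4 of the whole embryos. X:9610676-9611333 had a peak in 6 of 6 anterior, 2 of 4 central, 2 of 4 posterior and 8 of 8 whole-embryo lists.

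The same window also held a region of another pattern. X:9598407-9598679 was found in 4 of 4 central lists (247 to 269 bp) and 8 of 8 whole embryos (223 to 267 bp), in 3 of 6 anterior lists (both D2 lists and D1 replicate 1), and in 0 of 4 posterior lists.

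**Figure D3:**
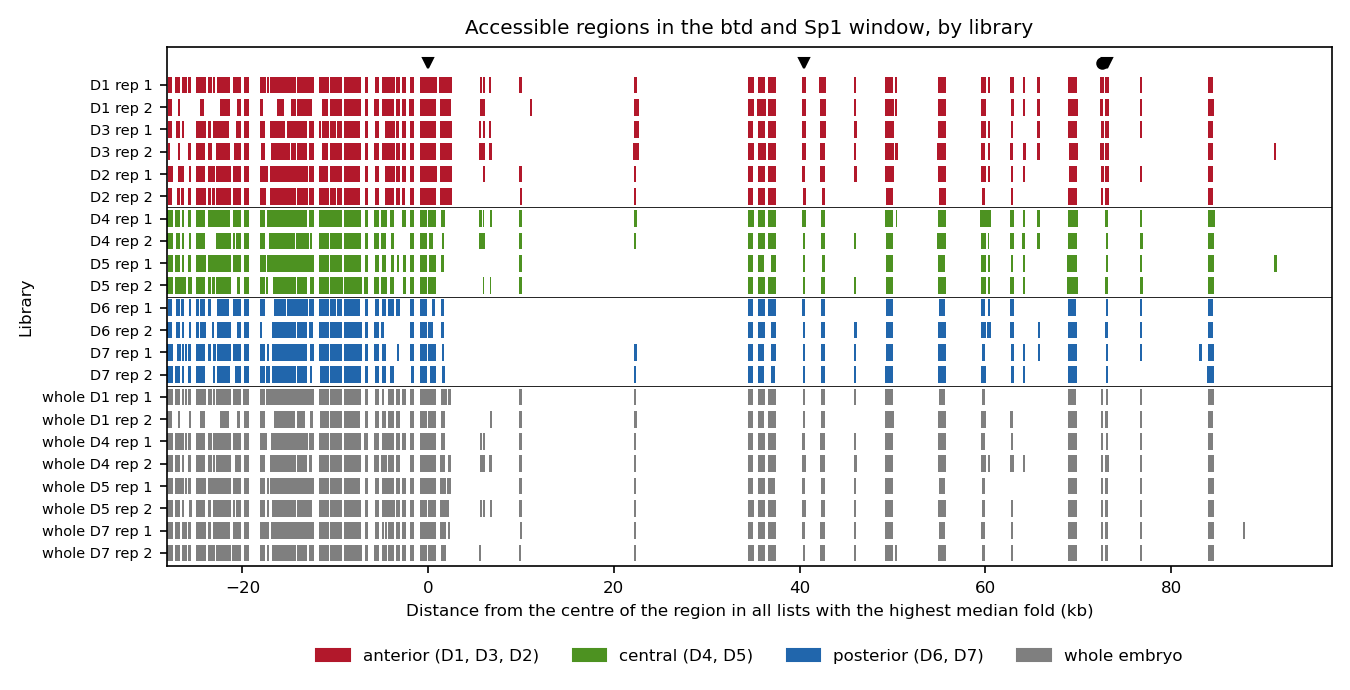
Peaks in the btd and Sp1 window, drawn as for oc. The circle marks the region found in all 6 anterior and 0 of 8 other tagged lists, and triangles mark the 3 regions that were longer in anterior nuclei (adjusted p below 0.05); most other regions run through all rows (25 of 45 in all 22 lists).

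The ems and E5 window held the other fully anterior member. At 3R:9729280-9730019 peaks covered 725 and 716 bp in D1, 206 and 700 bp in D3 and 624 and 602 bp in D2, and no list of D4, D5, D6 or D7 had a peak. In whole embryos 6 of 8 lists had one, of 246 to 569 bp, which is shorter than in 5 of the 6 anterior lists. The region just before it, 3R:9726978-9729078, had the smallest p for covered length in the 3 windows and is described below. 3R:9704314-9704738 was found in all 6 anterior lists (416 and 383 bp in D1, 321 and 330 bp in D3, 344 and 339 bp in D2), in 0 of 4 central lists, in D6 replicate 1 (281 bp) and in all 8 whole embryos (338 to 417 bp). 3R:9719175-9719803 was in 6 of 6 anterior, 3 of 4 central and 1 of 4 posterior lists and in 7 of 8 whole embryos, and 3R:9754331-9754748 in 5 of 6, 1 of 4, 1 of 4 and 3 of 8. The short region 3R:9721537-9721874 was found in 2 anterior lists, no other tagged list and 2 whole embryos.

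D6 replicate 1 was the posterior list with a peak at both X:8540048-8540548 and 3R:9704314-9704738, where its partner D6 replicate 2 had none. Leaving this list out can only raise the number of fully anterior members, and necessarily adds 3R:9704314-9704738. They then numbered 3, against 2 with all lists. Regions of the series that were fully separated in either direction then numbered 82. With all lists, 29 were fully separated in the anterior and 24 in the opposite direction.

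**Figure D4:**
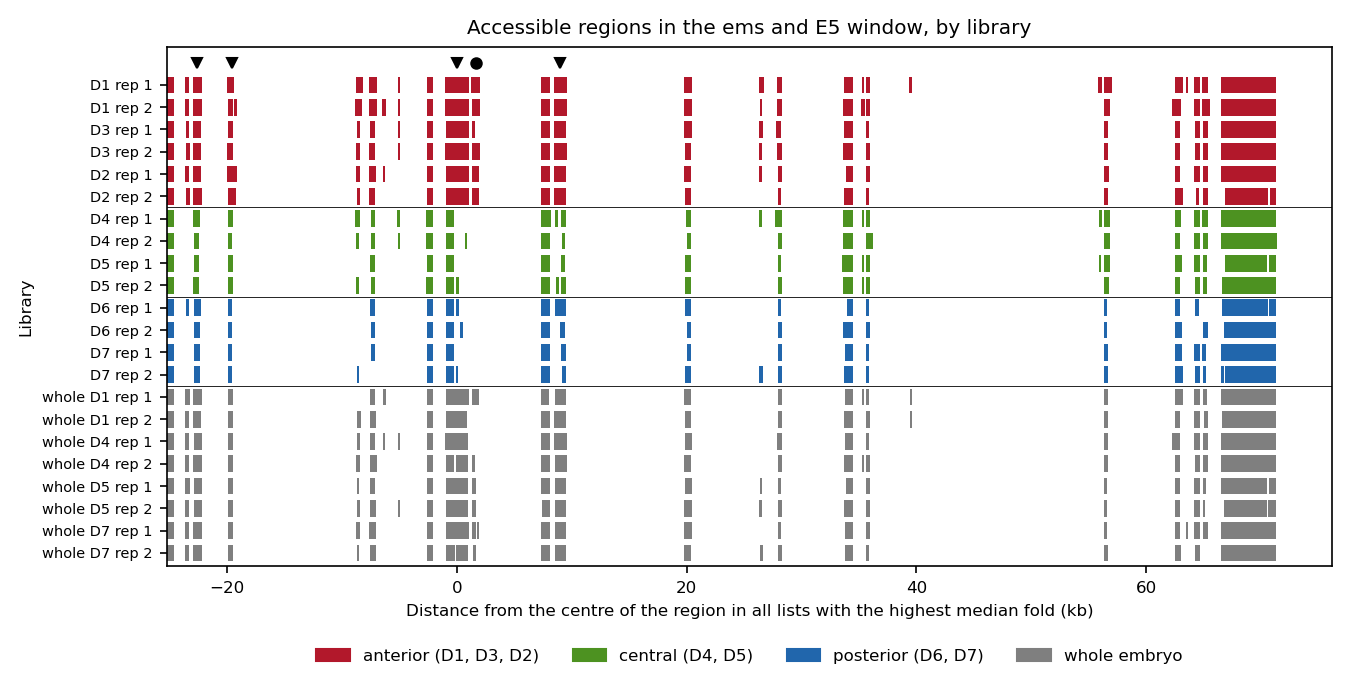
Peaks in the ems and E5 window, drawn as for oc. The circle marks the region found in all 6 anterior and 0 of 8 other tagged lists, and triangles mark the 4 regions that were longer in anterior nuclei (adjusted p below 0.05), among them 1 drawn as a single bar of 1991 to 2092 bp in the anterior rows.

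The 46 members found in every list could not differ by presence, and their covered length, the number of bp of a region that lies under peaks of a list, was compared instead. This measure was added after the presence of peaks had been seen. It uses the same peaks, in windows set with anterior differences known. The shares and p-values of the members below thus describe them and are not independent evidence. Log2 covered lengths of the 10843 regions found in all 22 lists were centred on the median of each list and fitted with limma. The domain was a block (estimated correlation 0.197), with Benjamini-Hochberg adjustment over all regions. This 1 correlation was estimated on a part of the regions and applied to all. Where the lists of a domain are more alike than that, the SE and p-values are too small, which was not checked by region. In anterior against other tagged nuclei, 11 of the 46 members (23.9%) were longer and 0 were shorter, while over all regions 72 (0.664%) were longer and 55 (0.507%) shorter. The median difference was 0.13 log2 units over the 46 members, 33 of them above 0, against 0.02 over all regions. At oc all 7 regions lay above 0 with a median of 0.62 and 4 were called, at btd and Sp1 14 of 25 with a median of 0.05 and 3 called, and at ems and E5 12 of 14 with a median of 0.14 and 4 called. Every anterior list was above every other tagged list, relative to the list medians, in 5 of the 46 members, against 95 regions (0.876%) of the series, and below in 0, against 58 (0.535%).

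The number of calls depended on the lists and settings, while the log2 differences of the 11 regions moved less. These were 0.38 to 1.74 with all 14 tagged lists. Without D1 replicate 1, D1 replicate 2 or D3 replicate 1, 7 members were called in each case, and 13 without D6 replicate 1. Without both D1 lists 4 were called, and the log2 differences of the 11 regions were 0.41 to 1.37, with the widest move at X:8530114-8533261 (1.26, against 1.74 with D1). Without centring 6 were called, with differences of 0.32 to 1.68. Within the 7 lists of a single naming style 1 was called, 3R:9726978-9729078, with differences of 0.33 to 1.65. Calls over all regions in these fits are not given here. The counts thus do not show whether members gained or lost calls more than other regions did.

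The 4 called oc regions were next to each other among the regions found in every list and were longest in D1, shorter in D3 and D2, and shortest in most central and posterior lists. X:8526170-8528039 was covered over 1870 and 1839 bp in D1, 1431 and 1339 bp in D3, 1167 and 1271 bp in D2, 565 and 546 bp in D4, 575 and 564 bp in D5, 1148 and 552 bp in D6, 513 and 491 bp in D7, and 1002 to 1782 bp in whole embryos (median 1448.5 bp). The lowest anterior list, D2 replicate 1, was just above D6 replicate 1, and the other central and posterior lists lay between 491 and 575 bp. The log2 difference was 1.35 ± 0.213 (SE), a 2.55-fold longer cover in anterior nuclei (limma, adjusted p = 0.00521). In D4, D5 and D7 the peak started between 8527395 and 8527424, whereas in anterior nuclei the cover started between 8526170 and 8526632, so the anterior lists held that peak and an added stretch on its lower-coordinate side. D6 replicate 1, with a start at 8526646, and all 8 whole-embryo lists, with starts between 8526238 and 8526624, had cover in that stretch too, while D6 replicate 2 started at 8527389.

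X:8536415-8538451 was covered over 1962 and 1993 bp in D1, 1087 and 1518 bp in D3, 916 and 1262 bp in D2, 481 and 276 bp in D4, 488 and 558 bp in D5, 680 and 491 bp in D6, 524 and 519 bp in D7, and 1144 to 1716 bp in whole embryos. No central or posterior list reached the lowest anterior list, and the log2 difference was 1.57 ± 0.232 (2.97-fold, limma, adjusted p = 0.00337). X:8530114-8533261 was covered over 3089 and 2807 bp in D1, 1531 and 1105 bp in D3, 751 and 772 bp in D2, 735 and 335 bp in D4, 297 and 349 bp in D5, 756 and 391 bp in D6, 356 and 579 bp in D7, and 870 to 1860 bp in whole embryos. The D2 lists overlapped there with D6 replicate 1, and the log2 difference was 1.74 ± 0.362 (3.34-fold, limma, adjusted p = 0.0281). Without centring it was 1.68 and missed the threshold (adjusted p = 0.0626), and the call was also lost in 7 of the 14 fits that left out 1 tagged list. X:8534344-8535275 was covered over 508 to 932 bp (median 775 bp) in anterior, 459 to 556 bp (480.5 bp) in other tagged and 536 to 820 bp (591.5 bp) in whole-embryo lists. Its log2 difference was 0.62 ± 0.122 (limma, adjusted p = 0.0197), and without centring it was 0.57 and missed the threshold (adjusted p = 0.0551). Its call was lost in 3 of the 14 fits that left out 1 tagged list.

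The 3 other oc regions found in every list did not pass the test. X:8518763-8519343, with an authors' fold of 11.3 to 16.7 over the lists, was covered over 502 to 573 bp in anterior, 516 to 547 bp in other tagged and 536 to 569 bp in whole-embryo lists, with a log2 difference of 0.08 ± 0.0621 (limma, adjusted p = 0.766). X:8544119-8545665 and X:8547801-8549573 differed by 0.12 ± 0.0636 and 0.21 ± 0.0824 log2 units. The region X:8544119-8545665 had the highest authors' fold of the window, up to 26.8. The called length differences at oc lay between 8526170 and 8538451.

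At btd and Sp1, 22 of the 25 regions found in every list did not pass the test. The widest member of the 3 windows, X:9570441-9576328, was covered over 3156 to 5592 bp in anterior, 4377 to 5763 bp in other tagged and 3959 to 5766 bp in whole-embryo lists (log2 difference -0.03 ± 0.117, limma, adjusted p = 0.963). X:9564856-9567398 (0.05 ± 0.173) and X:9576847-9579384 (-0.09 ± 0.0535), which are next in width, did not pass the test either.

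X:9587675-9589505 had the highest median authors' fold (32.5) of the regions of the window found in every list. Its fold ran from 2.06 to 39.3 over the lists, and its rank by fold from 1 to 14536. It was covered over 1817 and 1767 bp in D1, 1734 and 1771 bp in D3, 1808 and 1740 bp in D2, 1601 and 1232 bp in D4, 1530 and 1643 bp in D5, 1128 and 1378 bp in D6, 1530 and 1404 bp in D7, and 1553 to 1753 bp in whole embryos. All 6 anterior lists held it as 1 peak and all 8 other tagged lists as 2 peaks with a gap between them, and 5 of 8 whole-embryo lists held 1 peak and 3 held 2. The log2 difference was 0.38 ± 0.0701 (1.3-fold, limma, adjusted p = 0.0152), and without centring it was 0.32 and missed the threshold (adjusted p = 0.134).

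X:9661500-9661953, the neighbour of the fully anterior X:9660905-9661316, was covered over 370 and 364 bp in D1, 428 and 454 bp in D3, 430 and 359 bp in D2, 294 and 281 bp in D4, 270 and 291 bp in D5, 296 and 279 bp in D6, 252 and 238 bp in D7, and 268 to 341 bp in whole embryos. The anterior lists did not overlap with any other kind of list, and D3 and D2 held the 3 highest values. The log2 difference was 0.60 ± 0.0956 (1.51-fold, limma, adjusted p = 0.00562). X:9628863-9629296, with 323 to 425 bp in anterior, 242 to 334 bp in other tagged and 298 to 360 bp in whole-embryo lists, differed by 0.41 ± 0.0910 (limma, adjusted p = 0.0422) and lost its call in 12 of the 14 fits that left out 1 tagged list.

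At ems and E5, 3R:9726978-9729078 had the smallest adjusted p of all members and the fourth smallest p of the 10843 regions. It was covered over 2092 and 2054 bp in D1, 1991 and 2091 bp in D3, 2007 and 2008 bp in D2, 730 and 949 bp in D4, 726 and 972 bp in D5, 963 and 950 bp in D6, 723 and 971 bp in D7, and 1861 to 2003 bp in whole embryos. Every anterior list held it as 1 peak that reached 9729031 or beyond. Every other tagged list held a peak that started between 9727042 and 9727070, and in D4 replicate 1, D5 replicate 1 and D7 replicate 1, with no further peak, it ended between 9727778 and 9727793. The log2 difference was 1.3 ± 0.127 (2.45-fold, limma, adjusted p = 0.000120), and it was called under each alternative tried for the 11 regions, with an adjusted p of 0.00660 within 1 naming style.

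The 3 other called regions of that window were shorter. 3R:9705008-9705840, next to 3R:9704314-9704738, was covered over 694 to 798 bp (median 761.5 bp) in anterior, 472 to 643 bp (506.5 bp) in other tagged and 684 to 760 bp (713 bp) in whole-embryo lists, with no overlap between anterior and other tagged lists (log2 difference 0.58 ± 0.109, limma, adjusted p = 0.0161). 3R:9708035-9708860 was covered over 591 and 717 bp in D1, 520 and 492 bp in D3, 826 and 704 bp in D2, 408 to 463 bp in central, 293 to 372 bp in posterior and 442 to 470 bp in whole-embryo lists. There D2 was the highest anterior domain, and the log2 difference was 0.77 ± 0.131 (1.71-fold, limma, adjusted p = 0.00824). 3R:9736436-9737611 was covered over 1038 to 1176 bp in anterior, 316 to 951 bp in other tagged and 979 to 1107 bp in whole-embryo lists (1.21 ± 0.264, limma, adjusted p = 0.0358), and lost its call in 11 of the 14 fits that left out 1 tagged list. The widest region, 3R:9794542-9799372, was covered over 4310 to 4809 bp in anterior, 4305 to 4809 bp in other tagged and 4424 to 4799 bp in whole-embryo lists and did not pass the test (0.07 ± 0.0564, adjusted p = 0.773).

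**Figure D5:**
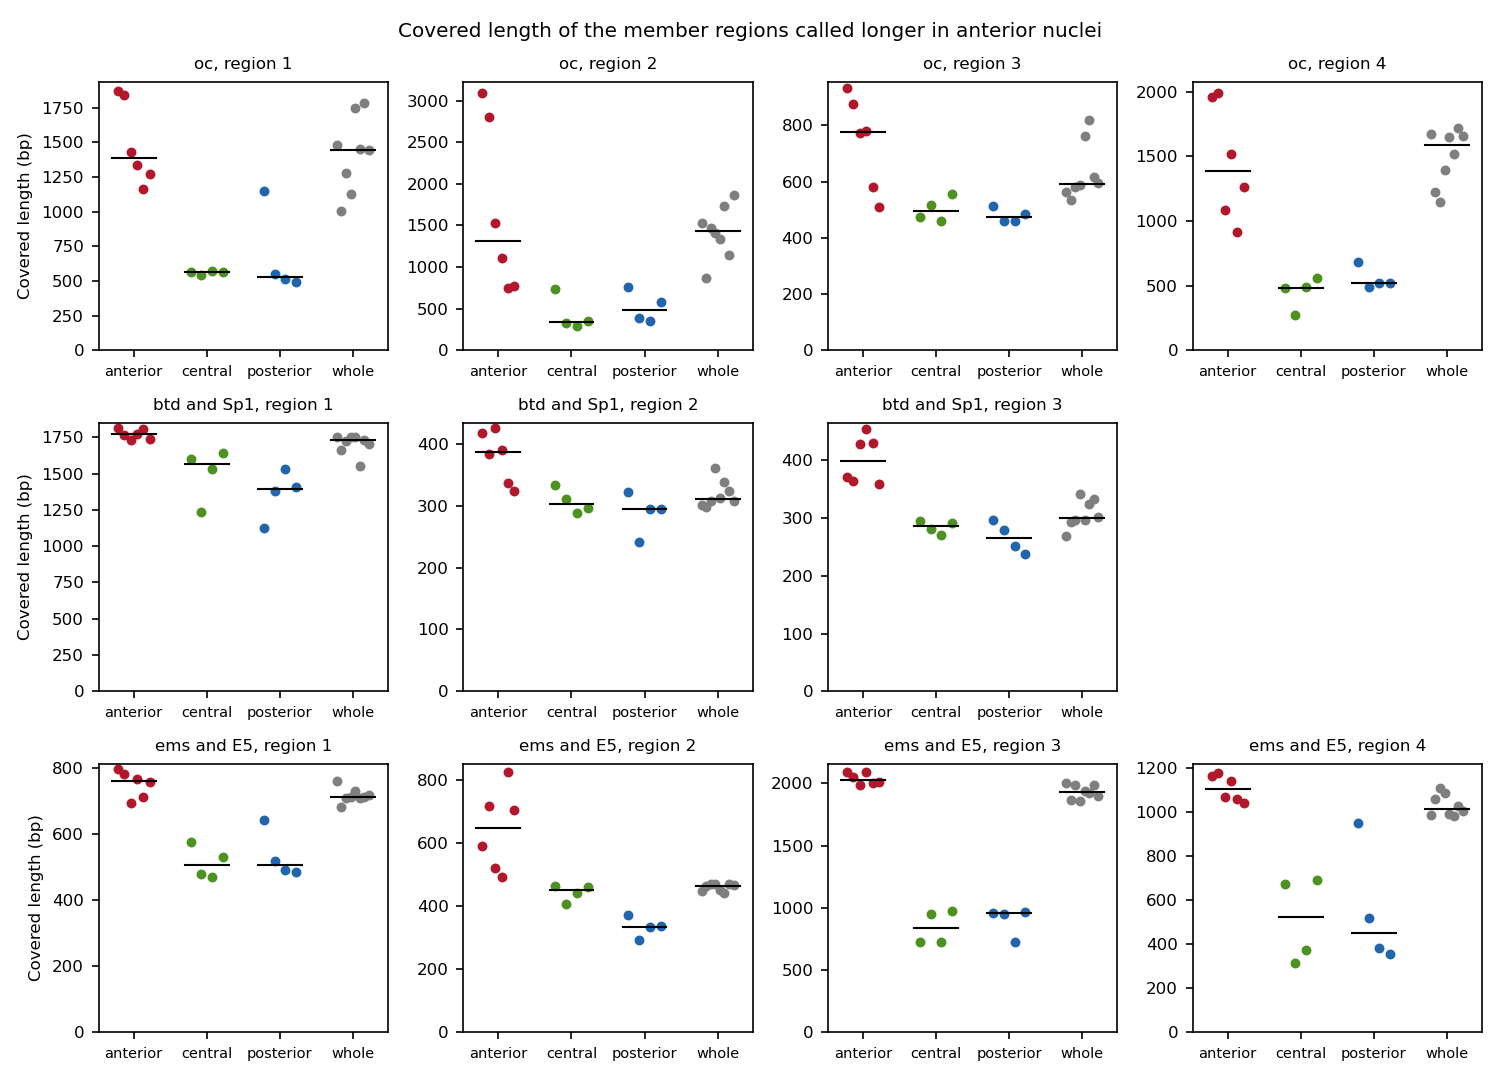
Covered length (y axis, bp) of the 11 regions that were longer in anterior nuclei, in anterior, central, posterior and whole-embryo lists (x axis); points are lists and lines medians, and regions are numbered by start within each window. Anterior lists spread widely at oc (1167 to 1870 bp in its first panel) and little in the long ems and E5 region, which covers 1991 to 2092 bp in anterior lists and 723 to 972 bp in central and posterior lists.

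Central against all other tagged lists gave 0 members found in all 4 central lists alone (36 regions, 0.388%, in the series) and 0 of 33 members with an unadjusted p below 0.05, which 485 regions (5.22%) had with more and 23 (0.248%) with fewer central peaks. For posterior against all other tagged lists, 0 members were missing from all 4 posterior lists and present in all others (17 regions, 0.183%), and 3 of 33 had an unadjusted p below 0.05 with fewer posterior peaks (323 regions, 3.48%) and 0 with more (26 regions, 0.28%), a share read against that background and the shorter posterior lists. In covered length, 0 of the 46 members were called in either comparison, in which 4 regions (0.0369%) of the series were longer and 5 (0.0461%) shorter in central nuclei, and 2 (0.0184%) were longer and 2 (0.0184%) shorter in posterior nuclei. At oc the covered length of all 7 regions was below 0 in central against the other tagged lists, with a median log2 difference of -0.44, a comparison in which the anterior lists are part of the other side.

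Set against central nuclei alone, 3 of 30 members were fully anterior, namely X:9660905-9661316, 3R:9704314-9704738 and 3R:9729280-9730019, with 54 of 7787 regions (0.693%) in the series, and 0 were fully central (153 regions, 1.96%). Set against posterior nuclei alone, 3 of 31 were fully anterior, X:9585769-9586258, X:9660905-9661316 and 3R:9729280-9730019, with 87 of 7229 regions (1.2%) in the series, and 0 were fully posterior (32 regions, 0.443%). Between central and posterior nuclei, 1 of 19 members, X:9598407-9598679, was found in every central and no posterior list, as were 220 of 6243 regions (3.52%). These comparisons share their anterior, central or posterior lists, and none had a region with an adjusted p below 0.05 (smallest adjusted p 0.179, 0.289 and 0.741 in the order given, Fisher's exact test).

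Against whole embryos, 0 of 26 members were found in all anterior and no whole-embryo list (3 of 8362 regions, 0.0359%), and 0 were missing from anterior lists alone (39 regions, 0.466%). X:9660905-9661316 and 3R:9704314-9704738 were missing from all central lists and present in all whole embryos (54 of 7294 regions, 0.740%), and X:9598407-9598679 and X:9660905-9661316 were missing from all posterior lists and present in all whole embryos (136 of 7667, 1.77%). The opposite pattern was held by 0 members for central (35 regions, 0.48%) and 0 for posterior nuclei (2 regions, 0.0261%). Fisher's exact test called 0 regions in these comparisons (smallest adjusted p 0.0663 for anterior, 0.166 for central and 0.112 for posterior nuclei). In covered length, 6 of the 46 members were longer in anterior nuclei than in whole embryos and 0 shorter, against 117 (1.08%) and 116 (1.07%) of all regions. They were X:9628863-9629296 (log2 difference 0.33), X:9661500-9661953 (0.47), 3R:9708035-9708860 (0.54), 3R:9726978-9729078 (0.16), 3R:9736436-9737611 (0.19) and 3R:9784319-9785014 (0.57), the largest limma adjusted p being 0.0486, and 2 were called without centring. No oc region was among them, and the log2 differences at oc were at most 0.29. All 14 regions of the ems and E5 window lay above 0 in this comparison, with a median of 0.16.

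The presence pattern of X:9660905-9661316, in all 6 anterior and all 8 whole-embryo lists and in no other, was shared in all 22 lists by 5 regions outside the windows and in 21 of 22 lists by 24. The 3 of the 5 with the highest median fold lay at X:7161430-7161749 (median fold 2.67 where found), 3L:10222068-10222579 (2.53) and 2L:6543742-6544343 (2.27), and X:9660905-9661316 itself had 2.76.

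Windows around 5 other gap and head loci were described in the same way. They were set from known dm3 positions that were not checked against a dm3 annotation. Of the hunchback (20 regions), giant (26), tailless (15), knirps with knirps-like (33) and sloppy paired (23) windows, each had 0 regions found in all anterior and no other tagged list. Only 5, 4, 5, 14 and 9 of their regions, in that order, could be compared by presence. With 0.312% of the series holding that pattern, counts of 0 among so few regions show no contrast. Among their regions found in every list, 0 of 12 at hunchback, 2 of 17 at giant, 0 of 8 at tailless, 1 of 10 at knirps and 1 of 10 at sloppy paired were longer in anterior nuclei and none shorter, with median log2 differences of 0.09 to 0.15. Over the series 0.664% were longer and 0.507% shorter. The difference between these windows and those of oc, btd and ems was not tested. The enhancers of hunchback and giant also drive the tag in D1 and D7.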

How the data were processed

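Per the labels, ATAC-seq libraries were made from 14 samples of tagged nuclei and 8 of whole embryos, and 1 genomic DNA sample was not analysed here. The deposited lists hold 1 set of peaks per library on dm3. Per the submitters' processing notes, Bowtie2 2.2.9, SAMtools 1.3.1 and MACS2 2.1.1.2 were used, and per the design text genomic DNA was the reference for peak calling. A shift of reads for the transposase is not given in the sources used here. Each deposited peak has the authors' score, fold enrichment and −log10 q (at least 2.00), which served only to describe, rank or filter peaks within a list. In 14 lists the deposited fold of a peak with several summits is that of a late summit, so a wide peak can have a low fold. Covered length does not use it. Read depth was unknown, so no counting interval was given.

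Peaks were merged with an overlap of at least 1 bp, and a region was found where a list had a peak. Presence in regions with a peak in 2 or more, and none in 2 or more, of the lists compared was tested by a two-sided Fisher's exact test in Python 3.11.15 with numpy 2.4.6 and pandas 2.3.3, with Benjamini-Hochberg adjustment over all of them and a threshold of 0.05. Covered lengths were fitted with limma 3.58.1 in R 4.3.3. Figures were drawn with matplotlib 3.10.9. The limma p-values measure the spread between lists of transgenic strains, and where both lists of a domain share a strain label (D3) that spread may be technical. Fisher's exact test counted both lists of a domain as independent, so its p-values take no account of likeness within a domain.

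The members, windows of other loci and lists were chosen with earlier results of these data known. Named regions were those fully separated in any comparison, the 5 of each window with the smallest p for anterior against other tagged nuclei, the 3 widest of each window found in every list, and the 3 outside regions most like the leading one. The regions called by covered length and the strongest and other regions named with them were chosen after their values were seen. Alternatives were a −log10 q of at least 10, the strongest 50% of each list, lists of equal length (16830 peaks, by width), a cover of 50% of a region (a peak always lies within its merged region), bins of 500 bp, gaps of up to 100 bp, no filter, a replicate block, and each list left out in turn. For covered length, added later, they were no centring, no domain block, a replicate block, regions found in all 14 tagged lists, 1 naming style, no D1 lists and each list left out.

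On simulated data, 200 of 200 regions set to full separation in anterior against other tagged lists were recovered with 0 other calls, and 200 of 200 for central and for posterior lists with 4 and 2 other calls. This recovery follows from the number of regions set, since all share the smallest p that Fisher's exact test can give. It does not show that fewer such regions would be called. In the data 29 and 24 regions were fully separated in the 2 directions, and their adjusted p of 0.0583 missed the threshold. The simulated lists were also drawn without likeness within a domain. For covered length in the same comparison, 61.5% of 200 regions changed by 0.5 log2 units and 90.5% of 200 changed by 1 were recovered among 10843 regions, with 2 and 13 false calls. These lists, too, were drawn without likeness within a domain, while the data had an estimated correlation of 0.197. Recovery and false calls in the data may thus differ from these values.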

Additional observations from a re-analysis of the deposited data

Results flagged for a closer look

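Of 56 groups of lists looked at, 5 held a highest or lowest list far from the others, and chance flags about 1 in 20 groups. D4 replicate 1 held 22 regions of the ems and E5 window, while the other central lists held 19. D6 replicate 1 covered 1148 bp of X:8526170-8528039, while the next posterior list covered 552 bp. D4 replicate 1 covered 735 bp of X:8530114-8533261, and the next central list 349 bp. The D5 whole-embryo replicate 2 covered 1553 bp of X:9587675-9589505, and the next lowest whole-embryo list 1662 bp. D7 replicate 1 covered 723 bp of 3R:9726978-9729078, and the next lowest posterior list 950 bp. The cause of these values was not tested.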

How the results depend on the processing

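Direction was checked only for anterior against other tagged nuclei, in the mean regions per list, the named regions and the 11 regions called by covered length. No alternative tried for these turned it. The called regions and part of the named ones were picked by that same difference. Bins and merging over gaps were not part of this check. The calls of Fisher's exact test remained at 0 regions in all 9 comparisons under most alternatives, including the replicate block. For anterior against other tagged nuclei, 45 regions were called, 2 of them members, when the strongest 50% of each list was used, and 54, 1 of them a member, with lists of equal length. X:9660905-9661316 was a called member in both. The counts of fully separated members that follow are given without the share over the series. They describe how the members moved and do not set them apart from other regions. In bins the unit is a bin of 500 bp, and 1 wide region can hold several, so those counts are not comparable with counts of merged regions. Fully separated members numbered 1 with a −log10 q of at least 10 and 1 with lists of equal length, against 2 in the report, and 7 bins were fully separated. For anterior against central nuclei they numbered 6 with a cover of 50% and 14 in bins, and for anterior against posterior nuclei 1 with a −log10 q of at least 10, 5 with a cover of 50% and 11 in bins. For central against posterior nuclei they numbered 0 with lists of equal length and 2 in bins, and for anterior nuclei against whole embryos 1 in bins. For central nuclei against whole embryos they numbered 1 with the strongest 50%, 7 with a cover of 50% and 8 in bins, and for posterior nuclei against whole embryos 0 with the strongest 50%, 0 with lists of equal length, 5 with a cover of 50% and 4 in bins. Leaving out 1 list gave 2 to 3 (anterior against other tagged), 0 to 1 (posterior against other tagged), 3 to 4 (anterior against central), 3 to 5 (anterior against posterior), 1 to 3 (central against posterior), and 2 to 4 for central and for posterior nuclei against whole embryos. Anterior minus other tagged regions per list ranged from 2.72 to 4.92 at oc, 3.08 to 4.67 at btd and Sp1, and 3.62 to 4.82 at ems and E5 with 1 list left out, and within the 3 naming styles (with 1, 3 and 2 anterior lists) was 10, 4.25 and 0.5 at oc, 5, 4.42 and 4.5 at btd and Sp1, and 6.67, 4.42 and 5 at ems and E5. For covered length, too, the counts that follow are of members only, without the calls over all regions. Members longer in anterior nuclei numbered 6 without centring, 1 within 1 naming style, 4 without both D1 lists, 9 with the replicate block, and 7 to 13 with 1 list left out. Members longer in anterior nuclei than in whole embryos numbered 2 without centring and 3 to 9 with 1 list left out. Members shorter in central nuclei numbered 1 without the domain block and 0 to 1 with 1 list left out. Replicate numbers did not pair lists (mean correlation 0.0267 over 21 pairs of domains, 1 above 0.1). The cause of these changes was not tested. With depth unknown, a missing peak does not show that a region was closed.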
